A study of Homo sapiens with 12 samples.

Results

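The genes of antigen processing and presentation were examined as 46 members taken by gene symbol from both deposited tables, which list 22441 genes for MEC1 and 17144 genes for JVM2. The members are HLA class I and class II genes, the factors that control their transcription, and the genes that cut, carry, trim and load peptides. All 46 were found in both tables under the same Ensembl identifiers, and all 46 passed the filter on low counts in each line. RNA was sequenced in 12 libraries from MEC1 and JVM2, which are established neoplastic human B-cell lines, with 3 biological replicates in each of 4 groups. MEC1-2B17 and JVM2-2B17 cells carry the coding sequence of UGT2B17, a glucuronosyltransferase, in a stably introduced pcDNA6 vector under blasticidin selection. JVM2-CTRL cells carry the empty pcDNA6 vector under the same selection. MEC1-CTRL cells carry a stable shRNA against UGT2B17 under puromycin selection, so that in MEC1 the construct, the antibiotic and the level of UGT2B17 differ together and cannot be told apart. No treatment or time course was applied, and nothing in the labels describes the populations as single clones.

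Class I molecules pair a heavy chain with beta-2 microglobulin and display peptides made in the cytosol: the proteasome cuts proteins, the TAP transporter moves the fragments into the endoplasmic reticulum (ER), aminopeptidases trim them, and tapasin, calreticulin and the oxidoreductase ERp57 help them onto the heavy chain. Class II molecules are alpha and beta chain pairs that leave the ER bound to the invariant chain, which endosomal proteases digest before HLA-DM exchanges the remaining fragment for an antigenic peptide, a step that HLA-DO restrains. B cells make class II molecules constitutively. The coactivator CIITA drives class II transcription through the RFX complex and NF-Y, which bind the X and Y boxes of these promoters, and NLRC5 plays the same part for class I genes and their partners.

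The listed counts summed to 31762649 to 37744991 per library in MEC1 and to 8809179 to 11231330 in JVM2. UGT2B17 was expressed in all 12 libraries, with a mean of 10.99 CPM (the usual depth-scaled count, here on TMM-scaled library totals) in MEC1-CTRL against 21.1 in MEC1-2B17 (log2 fold change 0.94, adjusted P = 2.02e-09), and 27.8 in JVM2-CTRL against 38.7 in JVM2-2B17 (0.48, adjusted P = 0.00481). The 8 B-cell markers examined were expressed in both lines. The T-cell markers were not listed in JVM2 and summed to at most 0.639 CPM in any MEC1 library. CD14, a marker of monocytes, was not listed in JVM2 and had means of 0.0793 and 0.0414 CPM in the MEC1 arms. The 5 myeloid markers, CD14 among them, summed to at most 5.299 CPM in MEC1 and 13.8 CPM in JVM2. Of these, ITGAM had means of 3.89 CPM in MEC1-2B17 and 11.3 CPM in JVM2-2B17. The 4 stromal and endothelial markers summed to at most 3.56 CPM in MEC1 and 8.03 CPM in JVM2. JVM2-2B17 replicate 2 stood apart from the other JVM2-2B17 libraries. Counts of that library differed from those of replicates 1 and 3 with a mean chi-square per gene of 8.35 and 8.58, against 2.24 between replicates 1 and 3. MEC1-CTRL replicate 3 also stood apart from the other MEC1-CTRL libraries (8.41 and 6.77, against 2.50). The chi-square is relative to counting error and grows with depth, so its values cannot be compared between the lines. Members whose call within a line changed without either library are given with both values.

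In MEC1, 33 of the 46 members were called changed between 2B17 and CTRL cells, that is, had an adjusted P below 0.05 in edgeR's quasi-likelihood test, where 41.7% of all 16581 genes tested were called. Of these, 27 were lower in MEC1-2B17 (21.6% of all genes were called lower) and 6 were higher (20.0% of all genes). In JVM2, 26 members were called, where 29.3% of all 13021 genes were: 12 were higher in JVM2-2B17 (14.1% of all genes) and 14 lower (15.3% of all genes). Without JVM2-2B17 replicate 2, 30 members were called in JVM2, with 15 higher and 15 lower, and without 1 of the JVM2-CTRL libraries the number called lower was 8 or 9. The median log2 fold change of the members was -0.19 in MEC1 and 0.03 in JVM2, against medians over all genes tested of 0.0026 and 0.0001. Since these are bulk libraries, fewer cells expressing a gene and less of its RNA per cell cannot be told apart.

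The members did not move as a block. Both lines together placed 11 members lower in MEC1-2B17 but higher in JVM2-2B17, namely 9 genes of class II chains with HLA-DMB and HLA-DOA, where 3.93% of the 12243 genes tested in both lines showed that pattern. Another 6 members went the opposite way, higher in MEC1-2B17 and lower in JVM2-2B17 (3.50% of all genes): the ER aminopeptidases ERAP1 and ERAP2, the ER chaperones CALR, CANX and PDIA3, and the endosomal protease LGMN. A further 6 were lower in both lines (4.48% of all genes), and these were HLA-B, HLA-E, TAP1, TAP2, PSMB9 and PSME2. The JVM2 calls of HLA-E, TAP2, PSMB9 and PSME2 were lost without JVM2-CTRL replicate 3, and those of HLA-E and TAP2 also by DESeq2. No member was higher in both lines by edgeR at the adjusted or the unadjusted P of 0.05, or by DESeq2, where 3.90% of all genes were. The remaining members were called in MEC1 alone (10), in JVM2 alone (3) or in neither line (10).

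**Figure D1:**
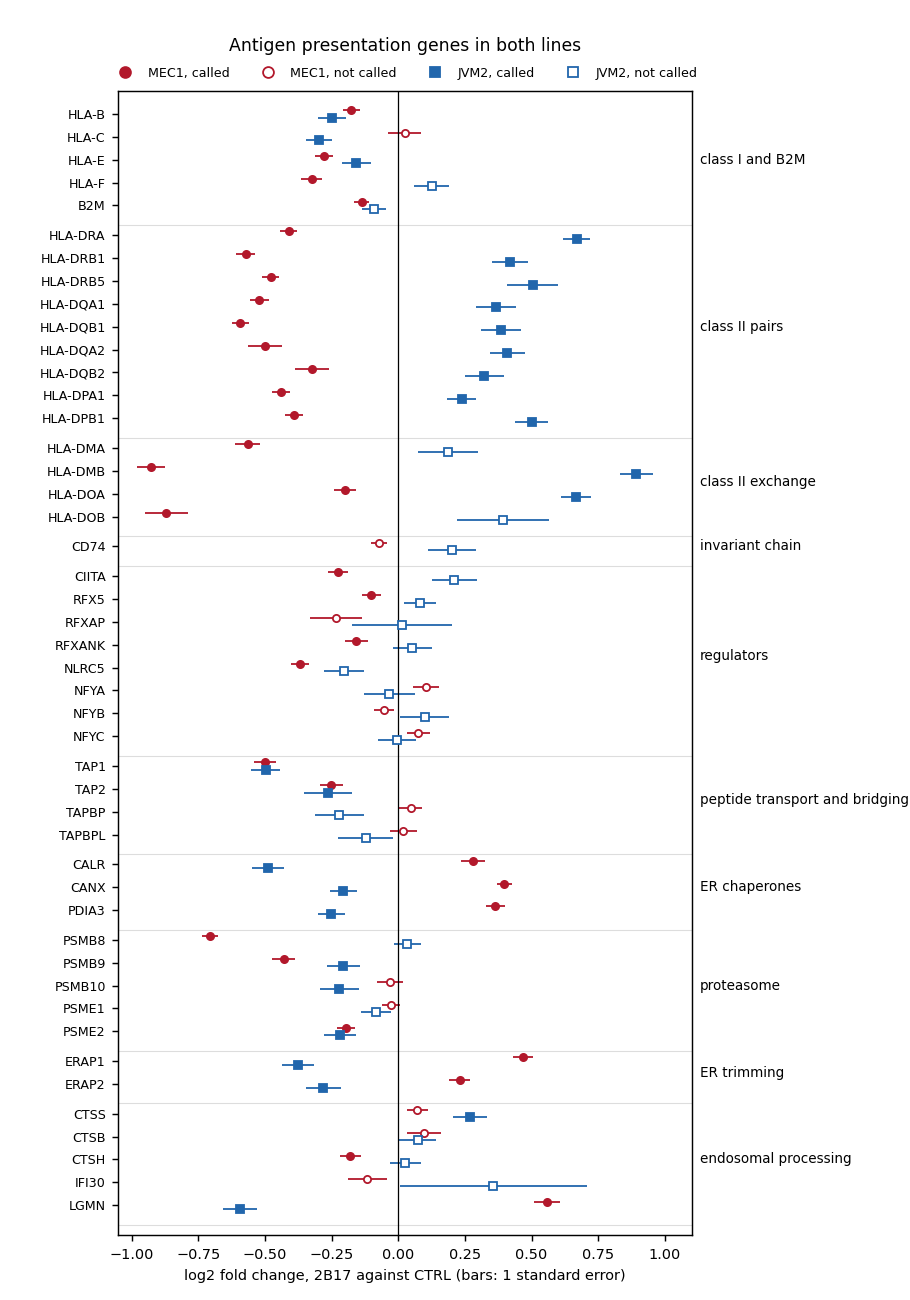
The log2 fold change of 2B17 against CTRL cells is plotted for each of the 46 members, grouped by role, with circles for MEC1, squares for JVM2, bars of 1 standard error and filled symbols where the adjusted P was below 0.05. The class II chains lie left of zero in MEC1 and right of zero in JVM2, the ER chaperones and aminopeptidases lie the other way round, and TAP1 lies at -0.50 in both lines.

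Of the 46 members, 37 had promoter windows in RefSeq on GRCh38.p14, and the 250 bases before each start site were searched on both strands for CCNAGNNAC, the letters of the X1 box, for CCAAT, the core of the Y box, and for GAAA repeated after 2 further bases of any kind, the letters of an interferon regulatory factor site (IRF letters). Matches to different motifs may overlap by a few bases at their ends, and IRF letters may overlap each other. Among the 13 class II genes and CD74 with a window, out of 14, 12 held CCAAT, 7 held CCNAGNNAC, 6 held both and 0 held IRF letters. Of all 27305 genes with windows, 37% held CCAAT, 16.4% held CCNAGNNAC and 3.71% held IRF letters. A match describes letters and not a bound site, and a missing match says only that these letters are absent from the window.

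Stretches of 120 bases, from 130 to 11 bases before the start site and read 5′ to 3′ on the gene's strand, are shown as examples. Capitals mark CCNAGNNAC and CCAAT or its complement ATTGG. HLA-DMB (chr6:32941039-32941158, minus strand) and HLA-DOA (chr6:33009602-33009721, minus strand) were called in opposite directions in the lines, CD74 (chr5:150412921-150413040, minus strand) holds the same letters and was called in neither, and HLA-DPA1 (chr6:33073660-33073779, minus strand, the second of its windows) holds the X1 letters without CCAAT.
HLA-DMB: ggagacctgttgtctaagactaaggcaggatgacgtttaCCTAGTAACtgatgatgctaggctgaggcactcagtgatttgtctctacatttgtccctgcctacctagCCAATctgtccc
HLA-DOA: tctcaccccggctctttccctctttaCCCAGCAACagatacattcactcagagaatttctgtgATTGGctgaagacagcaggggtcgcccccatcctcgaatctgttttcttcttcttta
CD74: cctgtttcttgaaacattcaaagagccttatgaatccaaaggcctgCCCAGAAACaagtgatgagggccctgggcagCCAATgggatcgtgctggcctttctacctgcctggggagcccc
HLA-DPA1: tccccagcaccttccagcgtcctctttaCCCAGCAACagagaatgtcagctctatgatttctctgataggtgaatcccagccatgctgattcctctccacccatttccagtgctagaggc

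**Figure D2:**
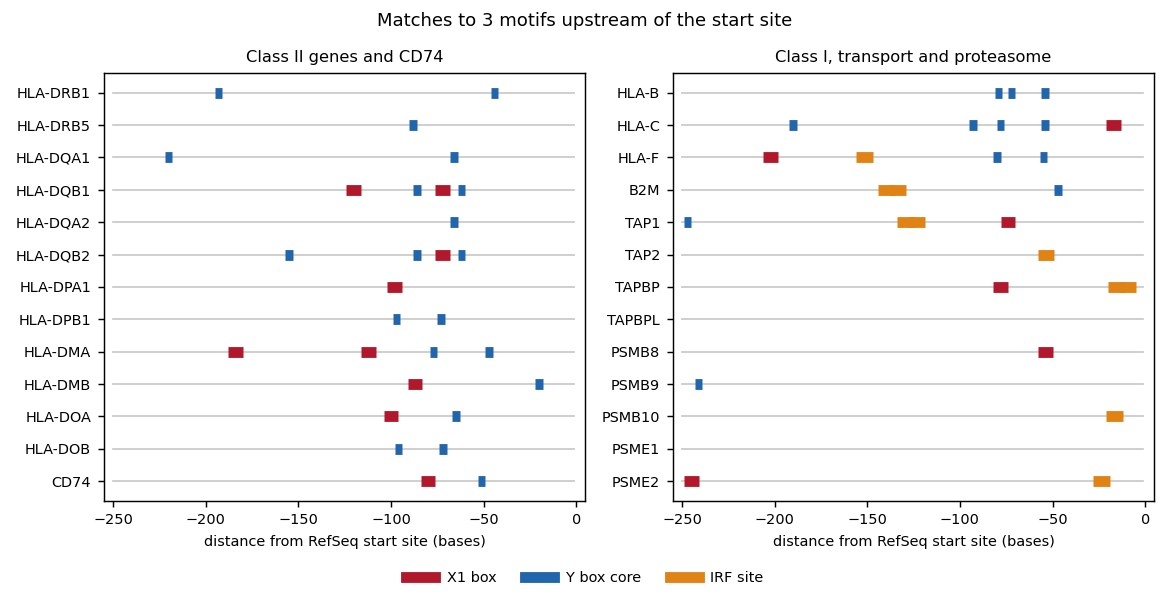
Positions of matches to the letters of the X1 box (red), the core of the Y box (blue) and an interferon regulatory factor (IRF) site (orange) in the 250 bases before the RefSeq start site, as distance in bases. The panels hold the class II genes with CD74 and the class I, transport and proteasome members that have a window, and the other members are not drawn. Both windows are overlaid where a gene has 2. Matches to the X1 letters in HLA-DPA1, HLA-DMB, HLA-DOA and CD74 lie between 104 and 76 bases before the start, and IRF letters are drawn in the class I panel and not in the class II panel.

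The class II chains were lower in MEC1-2B17 but higher in JVM2-2B17 without an exception: all 9 were called lower in MEC1 (median log2 fold change -0.48) and all 9 higher in JVM2 (median 0.41). HLA-DRA, the alpha chain common to HLA-DR molecules (chr6:32439878-32445046), read 889.5, 896 and 902 CPM in the MEC1-CTRL libraries and 647, 690.2 and 684 CPM in MEC1-2B17. In JVM2 the same gene read 1436, 1385 and 1379 CPM in CTRL and 2348, 2160.0 and 2169 CPM in 2B17 libraries. The arms did not overlap in either line, where 50.1% of all genes in MEC1 and 45.2% in JVM2 were free of overlap. The log2 fold changes were -0.41 ± 0.03 (SE, adjusted P = 4.02e-09) for MEC1 and 0.67 ± 0.05 (SE, adjusted P = 1.15e-06) for JVM2. The 1.59-fold level in JVM2-2B17 set HLA-DRA above the other class II chains in that line, while its change in MEC1 lay between those of the other chains.

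The HLA-DR beta chains followed. HLA-DRB1 (chr6:32577902-32589848) went from 247, 255 and 246 CPM to 166, 165 and 172 CPM in MEC1, a log2 change of -0.57 ± 0.04 (SE, adjusted P = 2.1e-10), and from 223, 206 and 188 CPM to 281, 279 and 266 CPM in JVM2, a log2 change of 0.42 ± 0.07 (SE, adjusted P = 0.000493). HLA-DRB5 (chr6:32517353-32530287) read 146, 146 and 143 CPM in MEC1-CTRL against 104, 102 and 105 CPM in MEC1-2B17 (-0.48, adjusted P = 3.27e-10). JVM2 held far less of it, with 19.4, 19.7 and 18.2 CPM in CTRL and 26.01, 30.1 and 25.3 CPM in 2B17 (0.50, adjusted P = 0.00175). For each HLA-DRB1 count there were 0.581 ± 0.00992 (SD, n = 3) HLA-DRB5 counts in MEC1-CTRL and 0.093 ± 0.00515 in JVM2-CTRL. The paralogs are nearly alike in sequence and the lines carry their own alleles, so reads may have been shared between them, and the size of either change is uncertain to that extent.

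The HLA-DQ chains behaved alike. HLA-DQA1 read 166, 167 and 161 CPM in MEC1-CTRL and 111, 120.0 and 114 CPM in MEC1-2B17, and 77.3, 68.8 and 66.01 CPM in JVM2-CTRL against 96.2, 85.01 and 91.98 CPM in JVM2-2B17. Its partner HLA-DQB1 went from 150.1, 157 and 150.5 CPM to 99.6, 102 and 102 CPM in MEC1 and, in JVM2, from 47.7, 49.2 and 46.5 CPM to 67.98, 58.2 and 60.8 CPM. Both chains of the pair thus fell by a similar amount in MEC1 (log2 fold changes -0.52 and -0.59) and rose by a similar amount in JVM2 (0.37 and 0.38). Their less abundant paralogs moved in the same directions, and whether reads were shared between the paralogs was not tested. HLA-DQA2 had 20.3, 21.1 and 18.6 CPM against 13.9, 13.97 and 14.7 CPM in MEC1 (-0.50) and 48.6, 46.3 and 48.5 CPM against 65.1, 60.01 and 65.2 CPM in JVM2 (0.41). HLA-DQB2 had 13.3, 13.7 and 13.7 CPM against 10.8, 10.97 and 10.8 CPM in MEC1 (-0.32) and 30.5, 31.2 and 30.8 CPM against 37.7, 38.7 and 39.3 CPM in JVM2 (0.32). No library of a 2B17 arm overlapped its CTRL arm for any of these genes.

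HLA-DPA1 and HLA-DPB1 encode the HLA-DP pair and lie side by side on opposite strands. HLA-DPA1 read 420.5, 413 and 427 CPM in MEC1-CTRL and 304, 315 and 310.1 CPM in MEC1-2B17 (-0.44). Its rise in JVM2, from 658, 637 and 649 CPM to 795, 717 and 779.8 CPM, was the smallest among the class II chains (0.24 ± 0.06 SE, adjusted P = 0.00681). HLA-DPB1 went from 118, 116 and 117 CPM to 86.4, 88.7 and 92.2 CPM in MEC1 (-0.39) and, in JVM2, from 239, 224 and 223 CPM to 341, 301 and 329 CPM (0.50). Summed over the 9 class II chains, the level came to 2178 ± 7.26 CPM (SD, n = 3) in MEC1-CTRL and 1585 ± 36.4 in MEC1-2B17. The sum in JVM2 was 2699 ± 70.7 CPM in CTRL and 3871 ± 169 in 2B17 cells. Without HLA-DRA, which carries much of that total, the sums were 1282 ± 5.35 and 912 ± 13.5 CPM in MEC1 and 1299 ± 39.9 and 1645 ± 71.6 CPM in JVM2, in the same directions.

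**Figure D3:**
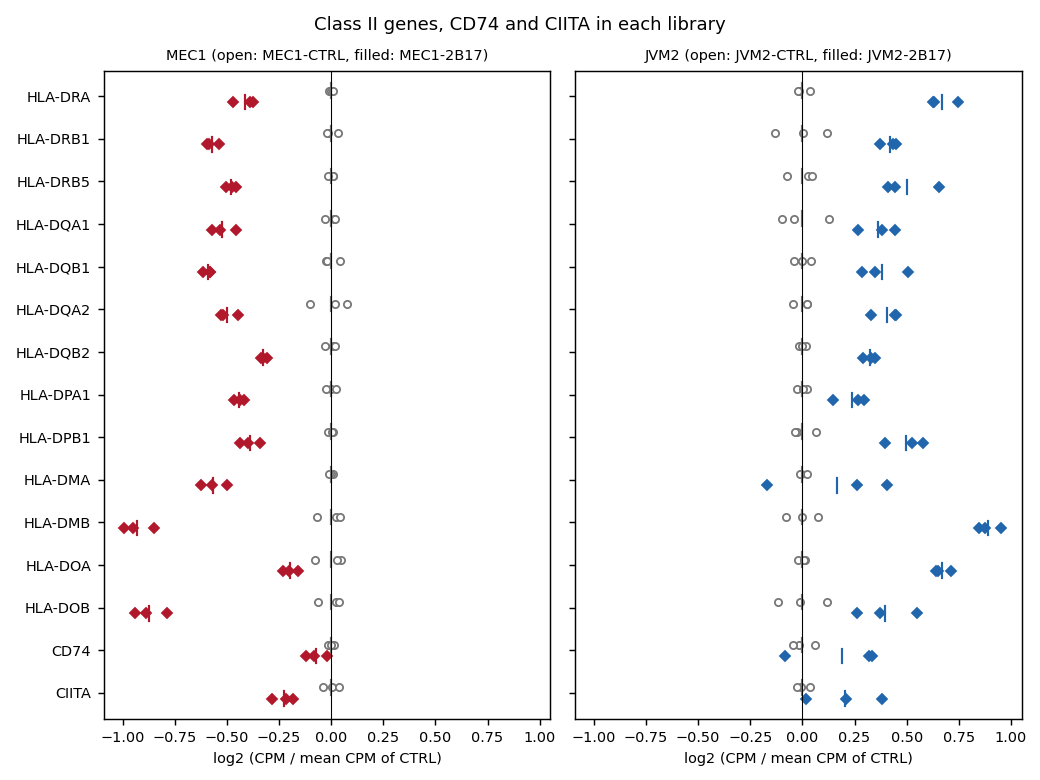
Each point is the CPM of a library relative to the mean CPM of the CTRL libraries of the same line, on a log2 axis, with open circles for CTRL, filled diamonds for 2B17 and vertical ticks at the group means (n = 3). The 2B17 libraries lie below the CTRL libraries for every class II gene in MEC1 and above them in JVM2 except for HLA-DMA, where 1 JVM2-2B17 library lies below, as it does for CD74.

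All 4 genes of class II peptide exchange were called lower in MEC1 (median log2 fold change -0.72), and 2 of the 4 were called higher in JVM2 (median 0.53). HLA-DMB, the beta chain of the HLA-DM exchange factor (chr6:32934629-32941028), read 43.2, 40.7 and 43.9 CPM in MEC1-CTRL and 23.6, 21.4 and 22.1 CPM in MEC1-2B17, 0.525 times the control level. JVM2 libraries read 82.3, 78.1 and 73.97 CPM in CTRL and 151, 143 and 140.5 CPM in 2B17, 1.86 times the control level. At -0.93 ± 0.05 (SE, adjusted P = 6.21e-11) on the log2 scale for MEC1, and at 0.89 ± 0.06 (SE, adjusted P = 4.88e-07) for JVM2, it held the largest change of any member in each line. Relative to HLA-DRA in the same library, HLA-DMB counts amounted to 0.0476 ± 0.00185 per HLA-DRA count in MEC1-CTRL and 0.0333 ± 0.00288 in MEC1-2B17. The ratio was 0.0558 ± 0.00192 in JVM2-CTRL and 0.0652 ± 0.00105 in JVM2-2B17, so that the libraries of the arms did not overlap in either line (both SD, n = 3).

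HLA-DMA, the alpha chain of the same factor (chr6:32948613-32969094), parted from its partner in JVM2. MEC1 libraries read 45.6, 45.2 and 45.0 CPM in CTRL and 29.4, 30.5 and 32.1 CPM in 2B17, a log2 change of -0.56 ± 0.05 (SE, adjusted P = 1.43e-08). JVM2-CTRL libraries read 123, 125 and 122 CPM and JVM2-2B17 libraries 163, 109.7 and 148 CPM, with replicate 2 below the controls and the others above, and no call was made (0.19 ± 0.11 SE, adjusted P = 0.235). Without JVM2-2B17 replicate 2 the value was 0.34 (adjusted P = 2.55e-05), and 3 of the 4 exchange genes were then called higher. HLA-DMB did not share the low value in that library.

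HLA-DO, which restrains HLA-DM, is built from HLA-DOA and HLA-DOB. HLA-DOA read 81.3, 80.2 and 74.7 CPM in MEC1-CTRL against 68.3, 70.5 and 66.99 CPM in MEC1-2B17 (-0.20 ± 0.04 SE, adjusted P = 0.000611), the smallest decrease among the class II genes. In JVM2 it went from 68.1, 66.6 and 68.03 CPM to 106, 105 and 111 CPM (0.67 ± 0.06 SE, adjusted P = 2.7e-06), a rise as large as that of HLA-DRA. HLA-DOB, the scarcest class II gene of the set, read 11.1, 11.2 and 10.4 CPM in MEC1-CTRL and 5.89, 6.31 and 5.68 CPM in MEC1-2B17 (-0.87 ± 0.08 SE, adjusted P = 5.82e-08). Its JVM2 libraries did not overlap, at 4.19, 3.55 and 3.82 CPM in CTRL and 4.62, 5.63 and 4.98 CPM in 2B17, but the difference was not called at that depth (0.39 ± 0.17 SE, adjusted P = 0.105). The count ratio of HLA-DMA to HLA-DOA was lower in all 2B17 libraries of either line, going in MEC1 from 0.561 to 0.602 in the CTRL libraries to 0.43 to 0.479 in 2B17 and in JVM2 from 1.799 to 1.88 to 1.04 to 1.54. In contrast, the ratio of HLA-DMB to HLA-DOB overlapped between the MEC1 arms (3.64 to 4.21 and 3.39 to 4.01) and was higher in all JVM2-2B17 libraries (25.5 to 32.7) than in JVM2-CTRL (19.4 to 22.03). GENCODE annotates a readthrough gene on the same strand over 30.4% of the exonic bases of HLA-DOB, whose reads could have been left uncounted.

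CD74, the invariant chain that occupies the class II groove until peptide is loaded (chr5:150401637-150412969), was the most abundant class II component and was called in neither line. It read 1358, 1329 and 1345 CPM in MEC1-CTRL and 1238, 1271 and 1327 CPM in MEC1-2B17 (-0.07 ± 0.03 SE, adjusted P = 0.0579), with arms that did not overlap, and it was called without MEC1-2B17 replicate 3 (-0.09, adjusted P = 0.023). JVM2-CTRL libraries read 2194, 2083 and 2045 CPM and JVM2-2B17 libraries 2656, 1987 and 2626 CPM (0.20 ± 0.09 SE, adjusted P = 0.116), and replicate 2 again lay apart from the other JVM2-2B17 libraries. Without that library the JVM2 value was 0.33 (adjusted P = 8.25e-08). For each HLA-DRA count there were 1.501 ± 0.0234 CD74 counts (SD, n = 3) in MEC1-CTRL and 1.51 ± 0.0228 in JVM2-CTRL. The ratio was 1.898 ± 0.0516 in MEC1-2B17 and 1.09 ± 0.15 in JVM2-2B17, above all controls in MEC1 and below all controls in JVM2.

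The B-cell markers measured beside the class II genes gave a mixed picture, and their part in the class II result was not tested. In MEC1, 4 of the 8 markers were called higher and 4 lower, and their summed level was 2529 to 2592 CPM in CTRL and 2393 to 2465 CPM in 2B17 libraries. In JVM2, 4 were called higher and 1 lower, with sums of 1452 to 1460.0 CPM in CTRL and 1430.0 to 1672 CPM in 2B17. Among those called higher, CD22 (0.38, adjusted P = 0.0294) lost its call when any library but JVM2-2B17 replicate 2 was left out (adjusted P = 0.0567 to 0.1165). MS4A1, which encodes CD20, had a log2 fold change in MEC1 of -0.58 (adjusted P = 3.93e-11) against 0.40 for JVM2 (adjusted P = 0.000378), in the same directions as class II. CD79A went the other way, at 0.28 and -0.39, and the JVM2 value was -0.24 without JVM2-2B17 replicate 2 (adjusted P = 0.000445) and was not called without JVM2-CTRL replicate 1 or 3 (adjusted P = 0.0735 and 0.0528). The 5 myeloid markers, of which 3 were listed in JVM2, summed to 2.35 to 2.92 CPM in MEC1-CTRL and 4.74 to 5.299 CPM in MEC1-2B17, and to 5.41 to 6.58 and 11.2 to 13.8 CPM in JVM2. In MEC1, 3 of these markers were tested, with 1 called higher and 1 lower, and in JVM2 ITGAM alone was tested. ITGAM rose in both lines (1.58 and 1.22), from a mean of 1.29 to 3.89 CPM in MEC1 and of 4.87 to 11.3 CPM in JVM2. CSF1R was the marker called lower in MEC1 (-0.71, adjusted P = 0.0415), from a mean of 0.782 to 0.481 CPM. That call was lost without replicate 1 or 3 of either MEC1 arm (adjusted P = 0.0749 to 0.203).

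The transcriptional regulators had small fold changes. In MEC1, 4 of the 8 were called lower and 0 higher, where 41.7% of all genes were called and 21.6% were called lower. In JVM2 edgeR called 0 of the 8, where 29.3% of all genes were called. At an unadjusted P below 0.05, 1 was higher and 1 lower in JVM2, and DESeq2 called 0 there. CIITA, the class II coactivator (chr16:10866222-10943021), read 93.3, 90.6 and 95.5 CPM in MEC1-CTRL and 76.4, 80.2 and 82.1 CPM in MEC1-2B17, a log2 change of -0.23 ± 0.04 (SE, adjusted P = 7.12e-05). JVM2-CTRL libraries read 69.2, 67.1 and 66.2 CPM and JVM2-2B17 libraries 78.04, 68.2 and 88.02 CPM, with replicate 2 within the controls and the others above them (0.21 ± 0.08 SE, adjusted P = 0.0785). Without JVM2-2B17 replicate 2 the JVM2 value was 0.30 (adjusted P = 0.000235). The difference between the lines was itself called, at -0.43 (adjusted P = 0.00077). The exons of DEXI, on the other strand, cover 10.7% of the exonic bases of CIITA, and whether the counting used strand is not given in the sources used here.

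The RFX complex, which binds the X box, is made of RFX5, RFXAP and RFXANK. RFX5 fell from 210.3 ± 6.33 CPM (SD, n = 3) to 196 ± 0.691 CPM in MEC1 (-0.10, adjusted P = 0.0272), a call lost when MEC1-CTRL replicate 1 or any MEC1-2B17 library was left out (adjusted P = 0.0656 to 0.117). RFXANK fell from 65.4 ± 1.04 to 58.6 ± 2.93 CPM (-0.16, adjusted P = 0.00592). RFXAP was not called in MEC1 (-0.23, adjusted P = 0.0631), but it was when MEC1-CTRL replicate 3 (-0.31, adjusted P = 0.0152) or MEC1-2B17 replicate 1 (-0.29, adjusted P = 0.0481) was left out, and with a replicate block (adjusted P = 0.0291). In JVM2 the values were 0.08 for RFX5, 0.05 for RFXANK and 0.01 for RFXAP, with adjusted P between 0.355 and 0.965. BORCS8, on the other strand, covers 14.5% of the exonic bases of RFXANK. The subunits of NF-Y, which binds CCAAT, were called in neither line. NFYA, NFYB and NFYC had log2 fold changes of 0.10, -0.05 and 0.07 in MEC1 and -0.03, 0.10 and -0.0041 in JVM2.

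NLRC5, the coactivator of class I genes (chr16:56989485-57083531), had the largest called change among the regulators. MEC1 libraries read 114, 113 and 115 CPM in CTRL and 85.3, 87.9 and 91.8 CPM in 2B17, a log2 change of -0.37 ± 0.03 (SE, adjusted P = 7.53e-08). In JVM2 they read 114, 109 and 105 CPM in CTRL and 89.01, 90.2 and 106 CPM in 2B17, where replicate 3 overlapped the controls (-0.20 ± 0.07 SE, adjusted P = 0.0549). That value was called without JVM2-2B17 replicate 2 (-0.17, adjusted P = 0.0317) or without replicate 3 (-0.28, adjusted P = 0.00927). Both coactivators were lower in MEC1-2B17, and in JVM2 their values had opposite signs.

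Class I genes were lower or not called in both lines. Of the 4 heavy chains and B2M, 4 were called lower in MEC1 (median log2 fold change -0.18) and 3 lower in JVM2 (median -0.16). Over all genes, 21.6% were called lower in MEC1 and 15.3% in JVM2. Of these 5 genes, 0 were called higher in either line by edgeR, at an unadjusted P below 0.05 or by DESeq2. HLA-B (chr6:31353872-31367067), 30.7% of whose exonic bases a pseudogene on the same strand also covers, read 933, 963 and 936 CPM in MEC1-CTRL and 842, 799.8 and 864 CPM in MEC1-2B17, and 1443, 1485 and 1410.0 CPM in JVM2-CTRL against 1198, 1275 and 1178 CPM in JVM2-2B17. HLA-E, whose product is read by natural killer cell receptors, went from 437, 438 and 416 CPM to 356, 348 and 361 CPM in MEC1 and, in JVM2, from 677, 671 and 634 CPM to 614, 588 and 575 CPM. The arms stayed apart for both genes. HLA-B changed by -0.18 and -0.25 and HLA-E by -0.28 and -0.16, the last of which (adjusted P = 0.0457) was not called by DESeq2 (adjusted P = 0.0697), or when any library but JVM2-2B17 replicate 2 was left out (adjusted P = 0.0522 to 0.151).

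HLA-C and HLA-F parted from that course. HLA-C was called in JVM2 alone, at 696, 701 and 686 CPM in CTRL and 571, 567 and 558 CPM in 2B17 (-0.30 ± 0.05 SE, adjusted P = 0.000702). In MEC1 it read 261, 270.2 and 272 CPM in CTRL and 292, 231 and 294 CPM in 2B17, with replicate 2 below the controls and the others above (0.02 ± 0.06 SE, adjusted P = 0.799). Without MEC1-2B17 replicate 2 the value was 0.14 (adjusted P = 0.00818). HLA-F, by contrast, was called in MEC1 alone: 119.6, 132 and 125 CPM in CTRL against 100.2, 96.7 and 104 CPM in 2B17 (-0.32 ± 0.04 SE, adjusted P = 2.11e-06), with 126, 112 and 117 CPM and 122, 135 and 129.8 CPM in JVM2 (0.12, adjusted P = 0.173). The differences between lines were called for HLA-C (0.32, adjusted P = 0.00943) and HLA-F (-0.44, adjusted P = 0.000272). A pseudogene on the other strand covers 15.6% of the exonic bases of HLA-F. B2M, the light chain common to all class I molecules and the member with the highest mean CPM in every group but MEC1-2B17, where CANX was higher, fell by 0.14 on the log2 scale in MEC1 (from 1953 ± 3.25 to 1775 ± 61.6 CPM, SD, n = 3). In JVM2 it read 3811 ± 67.04 and 3580.0 ± 94.7 CPM (-0.09, adjusted P = 0.155), and it was called without JVM2-2B17 replicate 2 (-0.11, adjusted P = 0.014).

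Of the 13 class I, transport and proteasome members with a promoter window, out of 14, 7 held IRF letters, 6 held CCAAT and 6 held CCNAGNNAC. The stretches of TAP1 (chr6:32853745-32853854, minus strand), which was lower in both lines, and of B2M (chr15:44711367-44711476, plus strand), which was called in MEC1 alone, are shown from 150 to 41 bases before the start site, with capitals marking overlapping matches to the IRF letters or, in TAP1, to their complement.
TAP1: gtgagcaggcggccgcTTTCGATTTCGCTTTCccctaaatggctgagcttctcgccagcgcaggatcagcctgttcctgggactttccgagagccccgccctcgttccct
B2M: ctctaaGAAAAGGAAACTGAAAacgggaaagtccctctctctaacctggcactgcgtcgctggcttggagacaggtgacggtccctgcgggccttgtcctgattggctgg

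TAP1, a subunit of the peptide transporter (chr6:32845209-32853816), fell in both lines. It read 209.6, 206 and 213 CPM in MEC1-CTRL and 155, 138 and 152 CPM in MEC1-2B17 (-0.50 ± 0.04 SE, adjusted P = 1.4e-08). JVM2-CTRL libraries read 357, 345 and 339 CPM and JVM2-2B17 libraries 257, 239 and 242 CPM (-0.50 ± 0.05 SE, adjusted P = 2.59e-05). The difference between the lines was 0.0021, with an approximate 95% interval of -0.14 to 0.14 (adjusted P = 0.988). TAP2, the other subunit, went from 45.1, 43.9 and 44.6 CPM to 36.5, 38.2 and 37.7 CPM in MEC1 (-0.25 ± 0.04 SE, adjusted P = 0.000152), and JVM2 libraries went from 30.8, 31.6 and 32.7 CPM to 28.7, 23.3 and 26.9 CPM (-0.26 ± 0.09 SE, adjusted P = 0.0469). The JVM2 call of TAP2 was lost without JVM2-2B17 replicate 2, the lowest of its libraries (-0.18, adjusted P = 0.0994 without it), when any other library but JVM2-2B17 replicate 1 was left out, and by DESeq2 (adjusted P = 0.12).

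TAPBP (tapasin), which bridges the transporter and the class I heavy chain, was called in neither line. In MEC1 it read 212 ± 5.56 and 218 ± 14.6 CPM (0.05). JVM2-CTRL libraries read 491, 485 and 484 CPM and JVM2-2B17 libraries 454, 341 and 458 CPM, with replicate 2 far below the other libraries (-0.22 ± 0.09 SE, adjusted P = 0.092), and the value was -0.09 without that library (adjusted P = 0.13). Its relative TAPBPL was called in neither line (0.02 and -0.12). Among the 4 genes of transport and bridging, edgeR called 0 differences between the lines, 1 had an unadjusted P below 0.05 (TAPBP, at 0.27) and DESeq2 called 0. The TAPBP difference was called when MEC1-2B17 replicate 1, JVM2-2B17 replicate 1 or JVM2-2B17 replicate 3 was left out (0.32 to 0.33), and it was 0.15 (adjusted P = 0.0769) without JVM2-2B17 replicate 2. An antisense RNA covers 21% of the exonic bases of TAPBP, a readthrough gene on the same strand covers 19.5% of those of TAP2, and VAMP1, on the other strand, covers 10.6% of those of TAPBPL.

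**Figure D4:**
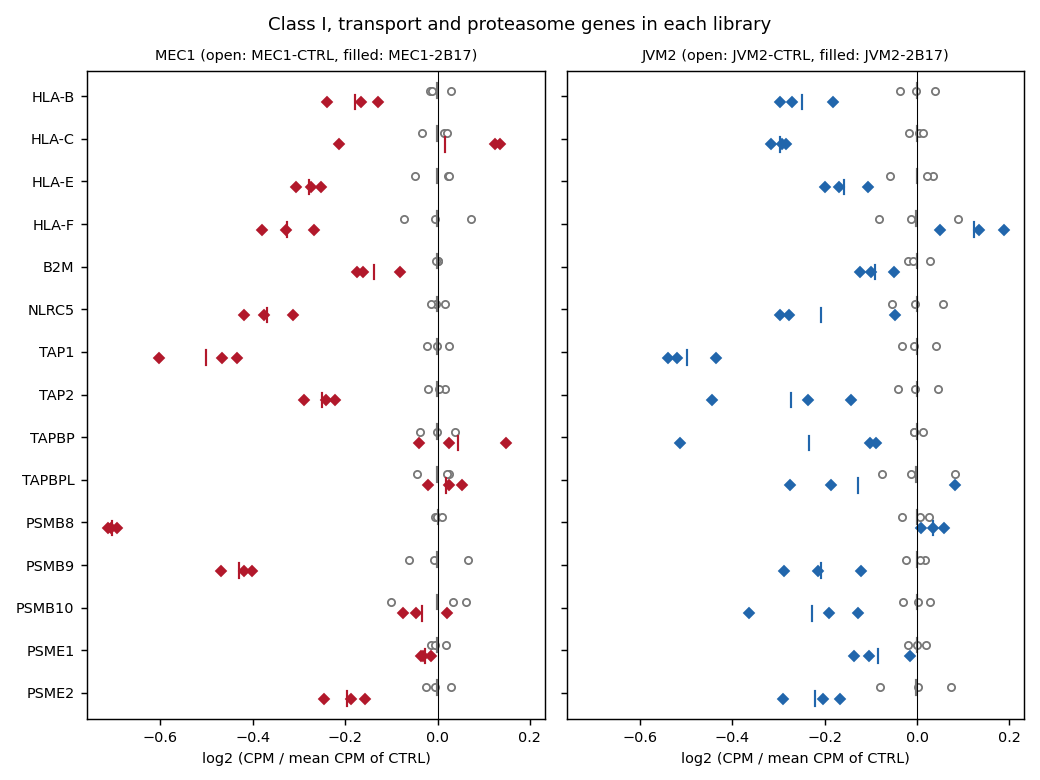
CPM of each library relative to the mean CPM of the CTRL libraries of its line, on a log2 axis, for class I genes, NLRC5, the transporter, tapasin and the proteasome members, with open circles for CTRL, filled diamonds for 2B17 and ticks at group means (n = 3). TAP1 is low in the 2B17 libraries of both lines, PSMB8 in MEC1 alone, and 1 JVM2-2B17 library carries the lowest values of TAPBP and TAP2.

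The immunoproteasome replaces the constitutive catalytic subunits PSMB5, PSMB6 and PSMB7 with PSMB8, PSMB9 and PSMB10. Among the 5 proteasome members, 3 were lower in MEC1 (PSMB8, PSMB9 and PSME2) and 3 lower in JVM2 (PSMB9, PSMB10 and PSME2). Over all genes, 21.6% were called lower in MEC1 and 15.3% in JVM2. Of the 5, 0 were higher in either line by edgeR, at an unadjusted P below 0.05 or by DESeq2. PSMB8 (chr6:32840717-32844679) read 160.1, 160.5 and 162 CPM in MEC1-CTRL and 99.3, 98.4 and 98.03 CPM in MEC1-2B17 (-0.71 ± 0.03 SE, adjusted P = 1.7e-12). JVM2 libraries overlapped, at 291, 287 and 279.9 CPM in CTRL and 298, 293 and 288 CPM in 2B17 (0.03 ± 0.05 SE, adjusted P = 0.658). The difference between the lines was -0.74 (adjusted P = 1.18e-08). PSMB9 lies next to PSMB8 and read 76.5, 70.04 and 72.8 CPM against 54.7, 52.8 and 55.3 CPM in MEC1 (-0.43, adjusted P = 1.32e-07) and 146, 145 and 142 CPM against 132, 118 and 124 CPM in JVM2 (-0.21, adjusted P = 0.0231). PSMB8-AS1, on the opposite strand of PSMB8 and TAP1, covers 17.3% and 14.2% of their exonic bases, so its reads may have entered or left their counts if strand was not used.

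The immune subunits were also set against the constitutive ones in the same library. The count ratio of PSMB8 to PSMB5 was 1.67 ± 0.0628 (SD, n = 3) in MEC1-CTRL and 1.03 ± 0.0134 in MEC1-2B17, but 3.58 ± 0.0212 and 3.697 ± 0.103 in JVM2. The ratio of PSMB9 to PSMB6 went from 1.48 ± 0.0332 to 1.07 ± 0.0307 in MEC1 and from 1.49 ± 0.0806 to 1.33 ± 0.0516 in JVM2. PSMB10 to PSMB7 went the other way in MEC1, from 0.313 ± 0.0178 to 0.421 ± 0.0241, with PSMB7 itself lower there (-0.46, adjusted P = 1.36e-09) and PSMB10 not called (-0.03). In JVM2 that ratio was 0.502 ± 0.0205 in CTRL and 0.389 ± 0.0441 in 2B17, with PSMB10 called lower (-0.22, adjusted P = 0.0378). PSMB5 and PSMB6 were called in neither line.

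PSME1 and PSME2 form the PA28 cap of the proteasome. PSME2 read 373, 368 and 382 CPM in MEC1-CTRL and 336, 329 and 316 CPM in MEC1-2B17 (-0.20 ± 0.04 SE, adjusted P = 0.000158), and 321, 289 and 306 CPM in JVM2-CTRL against 265, 272 and 249.6 CPM in JVM2-2B17 (-0.22 ± 0.06 SE, adjusted P = 0.0162). PSME1 was called in neither line (-0.03 and -0.08). The JVM2 calls of PSMB9, PSMB10 and PSME2 were near the threshold: without JVM2-2B17 replicate 3, JVM2-CTRL replicate 1 or JVM2-CTRL replicate 3 each was lost, as were PSMB9 and PSMB10 without JVM2-CTRL replicate 2 (adjusted P = 0.0580 to 0.138), while over all 6 fits that left out a library their log2 fold changes stayed between -0.27 and -0.16. DESeq2 did not call PSMB10 there (adjusted P = 0.0968), and an unnamed protein-coding gene shares 39.4% of its exonic bases. Of 13 genes of the shared core and its assembly, 1 was called higher and 1 lower in MEC1 (PSMA5 at 0.14 and PSMA6 at -0.19) and 0 higher and 2 lower in JVM2 (PSMB2 at -0.30 and PSME3 at -0.30, or -0.18 without JVM2-2B17 replicate 2, a call lost when any JVM2-CTRL library was left out), with 1 higher in JVM2 at an unadjusted P below 0.05 and 0 by DESeq2.

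The genes of the ER that trim and fold moved opposite to class II in both lines. ERAP1 and ERAP2, aminopeptidases that cut peptides to the length that class I molecules hold, and CALR, CANX and PDIA3, the chaperones calreticulin and calnexin and the oxidoreductase ERp57, were all called higher in MEC1-2B17 and all lower in JVM2-2B17. ERAP1 (chr5:96760810-96808100) read 192, 193 and 194 CPM in MEC1-CTRL and 261, 280.4 and 259.7 CPM in MEC1-2B17 (0.47 ± 0.04 SE, adjusted P = 6.84e-09). In JVM2 it read 189.6, 182 and 193 CPM in CTRL and 152, 137 and 146 CPM in 2B17 (-0.37 ± 0.06 SE, adjusted P = 0.000537). ERAP2, its neighbour on the other strand, went from 178, 172 and 167 CPM to 201, 209.5 and 196 CPM in MEC1 (0.23) and, in JVM2, from 173, 176 and 185 CPM to 142, 158 and 139 CPM (-0.28). The arms were apart in each of these comparisons.

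CALR read 551, 573 and 647 CPM in MEC1-CTRL and 722, 714 and 713 CPM in MEC1-2B17 (0.28), with a wider spread among controls than in most members, and 1170.0, 1101 and 1105 CPM against 848, 743 and 814 CPM in JVM2 (-0.49). CANX read 1483, 1514 and 1548 CPM against 1958, 2059 and 1971 CPM in MEC1 (0.40) and 1218, 1262 and 1238 CPM against 1074, 1117 and 1034 CPM in JVM2 (-0.21, adjusted P = 0.0092). PDIA3 went from 355, 354 and 372 CPM to 459, 477 and 455 CPM in MEC1 (0.36) and, in JVM2, from 494, 484 and 489.9 CPM to 422, 416 and 395 CPM (-0.25). None of the 3 had overlapping arms in either line. The JVM2 call of CANX was lost without JVM2-CTRL replicate 2 or 3 (adjusted P = 0.0562 and 0.0524). These chaperones serve every glycoprotein that folds in the ER, and 6 other ER folding genes moved with them: HSPA5, HSP90B1, PDIA4, PDIA6, UGGT1 and GANAB were all called higher in MEC1-2B17 (median 0.24) and all lower in JVM2-2B17 (median -0.50). HSP90B1, the ER relative of HSP90, had log2 fold changes of 0.68 and -0.55, and HSPA5 (BiP) had 0.15 and -0.70. The MEC1 call of HSPA5 was lost without MEC1-CTRL replicate 1 (0.10, adjusted P = 0.0786) or 2, and that of GANAB without replicate 2 (0.10, adjusted P = 0.0686).

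**Figure D5:**
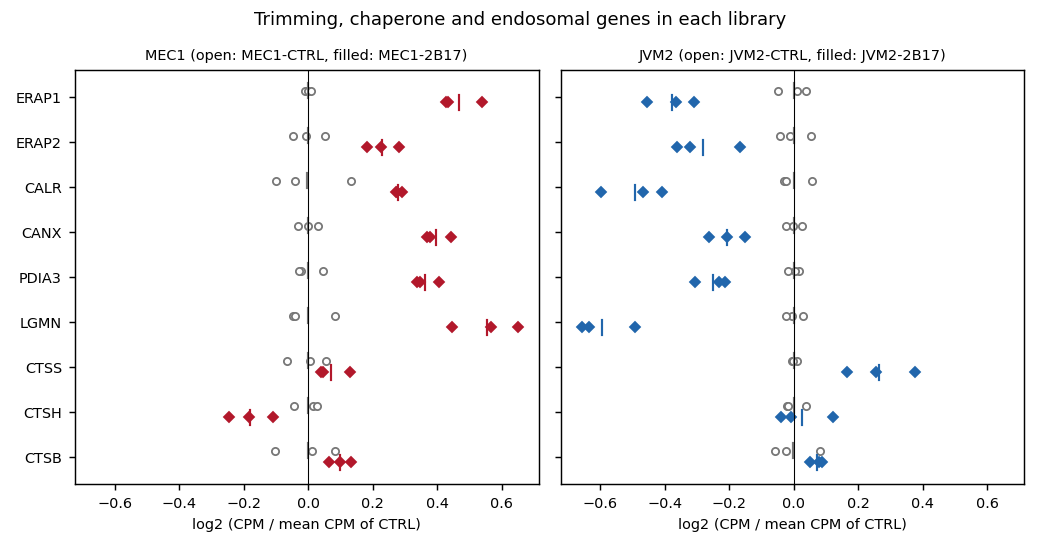
CPM of each library relative to the mean CPM of the CTRL libraries of its line, on a log2 axis, for the ER aminopeptidases, ER chaperones and 4 endosomal proteases, with open circles for CTRL, filled diamonds for 2B17 and ticks at group means (n = 3). ERAP1, ERAP2, CALR, CANX, PDIA3 and LGMN lie right of the controls in MEC1 and left of them in JVM2, while the CTSS change was called in JVM2 and not in MEC1.

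Endosomal genes did not share a direction. LGMN (legumain, an asparagine-specific endopeptidase, chr14:92703807-92748679) read 131, 144 and 132 CPM in MEC1-CTRL and 212, 185 and 201 CPM in MEC1-2B17, 1.47 times the control level (0.56 ± 0.05 SE, adjusted P = 1.78e-08). JVM2-CTRL libraries read 139, 136 and 134 CPM and JVM2-2B17 libraries 87.9, 97.2 and 86.6 CPM, 0.663 times the control level (-0.59 ± 0.06 SE, adjusted P = 1.79e-05). Its course was thus that of the ER genes and opposite to the class II chains. CTSS, the protease that removes the last part of the invariant chain in B cells, was called in JVM2 alone, at 148, 146 and 146 CPM in CTRL and 175, 191 and 164 CPM in 2B17 (0.27 ± 0.06 SE, adjusted P = 0.00768), and read 87.1, 84.1 and 80.0 CPM and 86.4, 91.6 and 86.1 CPM in MEC1 (0.07, adjusted P = 0.161). The difference between the lines was not called for CTSS (-0.19, adjusted P = 0.0753). That difference was called without MEC1-CTRL replicate 3 (-0.23, adjusted P = 0.043) or JVM2-2B17 replicate 3 (-0.25, adjusted P = 0.01745). CTSH was called in MEC1 alone, from 268 ± 6.998 to 236 ± 11.3 CPM (-0.18, adjusted P = 0.00107). CTSB and IFI30, a thiol reductase, were called in neither line. IFI30, which shares 42.5% of its exonic bases with another coding gene, was scarce in JVM2 (1.22 ± 0.24 CPM in CTRL), and a difference of 0.36 was not distinguishable there from the spread between libraries (SE 0.35 on the log2 scale).

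The same contrast was tested between the lines. In a single fit of all 12 libraries, the effect of 2B17 against CTRL differed between MEC1 and JVM2 for 26 of the 46 members (32.0% of the 15130 genes tested), with 19 more negative in MEC1 (16.7% of all genes) and 7 more positive (15.3% of all genes). All 13 class II genes and CD74 were among the 19, with the class II genes at log2 differences from -1.82 for HLA-DMB to -0.64 for HLA-DQB2. CD74 was the weakest, at -0.27 (approximate 95% interval -0.46 to -0.07, adjusted P = 0.0435), and its call was lost in 9 of the 12 fits that left out a library. Its value without JVM2-2B17 replicate 2 was -0.39 (adjusted P = 3.12e-07). The regulators other than CIITA were not called, although RFX5 was by DESeq2 (adjusted P = 0.0338) and RFX5 or RFXANK was in 5 of the 12 fits that left out a library, nor were TAP1, TAP2, HLA-B, HLA-E and B2M. For HLA-B the difference was 0.08 (-0.04 to 0.20), for HLA-E -0.12 (-0.24 to 0.01), for B2M -0.04 (-0.14 to 0.06) and for NLRC5 -0.16 (-0.32 to 0.0019). A difference of the size seen for the class II chains lies outside each of these intervals.

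Between the control cells of the lines, 39 of the 46 members were called different, where 78.3% of all 15130 genes were. The share is near the background and is not read as a result about the members. The lines differ in construct, table, depth and possibly sequencing site, which cannot be told apart, and HLA reads carry the alleles of each line. With library totals alone as the scale, the median of all genes in this comparison moved from -0.04 to -0.20, and 22 members were then called higher and 15 lower. Within those limits, 26 members were higher in JVM2-CTRL (38.7% of all genes) and 13 lower (39.6% of all genes). CD74 was 1.76 times, HLA-DRA 1.76 times, B2M 2.196 times, TAP1 1.86 times and PSMB8 2.003 times as high in JVM2-CTRL as in MEC1-CTRL. HLA-DMA stood at 3.07 times and its inhibitor's subunit HLA-DOB at 0.397 times. IFI30 was lowest by this measure, at 0.107 times. CIITA was lower in JVM2-CTRL, at 0.816 times the MEC1-CTRL level (adjusted P = 0.000249). The 9 class II chains were split, with 5 called higher there and 3 lower. Those lower were HLA-DRB5 (0.149 times), HLA-DQA1 (0.483 times) and HLA-DQB1 (0.353 times).

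Compared per length of the canonical GENCODE transcript, the order of members in the control cells was led by B2M, at 2071 CPM per kb in MEC1-CTRL and 4041 in JVM2-CTRL. CD74 (813 and 1275), HLA-DRA (725 and 1134) and HLA-B (615 and 941) came next in both lines. The exchange factors were much scarcer, with HLA-DMB at 31.6 and 57.95 CPM per kb and HLA-DOB at 8.22 and 2.904. TAP1 exceeded TAP2 in both lines, at 78.1 against 7.89 in MEC1-CTRL and 129 against 5.62 in JVM2-CTRL. These are levels and not differences between arms, and they depend on the transcript taken as canonical.

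Of the 46 members, 22 lie on chromosome 6 between 29 and 34 Mb (GRCh38, GENCODE release 44), and the genes between them give a local comparison. In MEC1, 20 of the 22 members there were called lower and 0 higher (median log2 fold change -0.44). The 130 other genes tested in the same interval had 24 called higher and 19 lower (33.1% called, median -0.01). In JVM2, 11 of the 22 members were called higher and 6 lower (median 0.28), and the 116 other genes had 16 higher and 11 lower (23.3% called, median 0.04). The members outside the interval, 24 in number, had 6 higher and 7 lower in MEC1 (54.2% called). In JVM2 they had 1 higher and 8 lower (37.5% called). Over all genes tested, 41.7% were called in MEC1 and 29.3% in JVM2.

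Factors that act on CIITA and on HLA promoters were taken as a list of 11. In MEC1, 1 was called higher and 5 lower (20.0% and 21.6% of all genes). In JVM2, 1 was called higher and 4 lower (14.1% and 15.3% of all genes). IRF1, which binds interferon regulatory factor sites, was called lower in JVM2 (-0.60, adjusted P = 1.51e-05) and not in MEC1 (-0.09, adjusted P = 0.0575), where it was called without MEC1-CTRL replicate 3 (-0.11, adjusted P = 0.0193). PRDM1, a repressor of CIITA in plasma cells, fell in both lines (-1.46 and -1.58), from 2.45 to 0.888 CPM in MEC1 and, in JVM2, from 93.9 to 31.3 CPM. IRF8 was lower in MEC1-2B17 (-0.25, adjusted P = 2.07e-05) and higher in JVM2-2B17 (0.40, adjusted P = 0.000624), the direction of class II in each line. IRF4 rose in MEC1 (1.03, adjusted P = 1.24e-15) and was not called in JVM2 (0.05). SPI1 fell in both lines (-0.31 and -0.58), in JVM2 by a call lost without JVM2-2B17 replicate 2 (-0.32, adjusted P = 0.074) or when any JVM2-CTRL library was left out (adjusted P = 0.0829 to 0.146). PAX5 was called lower in MEC1 (-0.17) and not in JVM2 (-0.12, adjusted P = 0.403), with no call for the difference between the lines (-0.05, adjusted P = 0.784), while CREB1, IRF2, EP300 and CREBBP were called in neither.

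The remaining lists were mixed in direction. Among 7 other endosomal genes tested, 3 were higher and 1 lower in MEC1 and 2 higher and 3 lower in JVM2: CTSC, which activates serine proteases, and CTSZ rose in both lines (0.75 and 0.22, 0.35 and 0.37), the cathepsin inhibitor CST3 fell in both (-1.97 and -0.68), CTSD rose in MEC1 (0.20) and fell in JVM2 (-0.29), and CTSA fell in JVM2 (-0.47). Of 5 other cytosolic or endosomal peptidases, LNPEP rose in both lines (0.35 and 0.24) and TPP2 fell in both (-0.21 and -0.21), and in MEC1 BLMH was also called higher (0.22) and NPEPPS lower (-0.09), the last a call lost when any library but MEC1-CTRL replicate 1 was left out (adjusted P = 0.0721 to 0.147). The JVM2 calls of TPP2 and CTSD were lost in 4 and 2 of the 6 fits that left out a library, and that of LNPEP in 1 (adjusted P = 0.0508 to 0.125). Among the genes of class II turnover and membrane microdomains, CD82 fell in both lines (-0.24 and -0.39), CD63 fell in MEC1 (-0.20), CD9 rose in JVM2 (3.93, from 0.168 to 2.698 CPM), and MARCHF8, a ligase that removes class II from the surface, was called in neither line (-0.10 and -0.01). MR1, MICA and MICB, which present or signal outside the classical route, were called in neither line by edgeR or DESeq2, with MR1 in JVM2 (0.17, adjusted P = 0.055) alone below an unadjusted P of 0.05. Without JVM2-2B17 replicate 2, MR1 (0.17, adjusted P = 0.0183), the tetraspanin CD37 (0.22, adjusted P = 0.00403) and the proteasome assembly factor POMP (0.15, adjusted P = 0.0383) were called higher in JVM2.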

How the data were processed

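Total RNA from 3 biological replicates per group was depleted of ribosomal RNA and sequenced as paired ends at 2 sites. The site of each sample is not given in the sources used here. Per the labels and the study's methods, the authors trimmed reads with Trimmomatic, aligned them to hg38 with TopHat2 (2.0.14) and obtained raw read counts per Ensembl gene, with HTSeq named among the tools. Strand use, counting mode and annotation release are not given in the sources used here. The deposited tables also hold the authors' normalized values, rounded to whole numbers and treated as a score (12 columns), a log2 fold change, a log2 mean abundance and the p-values and adjusted p-values of DESeq2 and edgeR for their own comparisons, and none of these was used. The tables list no gene with fewer than 10 counts in all.

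Counts were analysed as deposited with edgeR 4.0.16 (quasi-likelihood test, TMM scaling, filterByExpr at its defaults of 10 and 15 counts) in R 4.3.3. Each line was fitted on its own 6 libraries. A fit of all 12 libraries over the 15130 genes listed in both tables that passed the filter gave the difference between lines and the comparison of control cells. P-values were adjusted by Benjamini-Hochberg over all genes tested, with a threshold of 0.05. They set the difference between groups against the spread between the 3 replicates of each group. Separate transfections of an arm are not described in the sources used here, so the P-values do not cover variation between independently derived populations. Intervals are the estimate ± 1.96 SE. CPM values use TMM-scaled totals, without a pseudocount. Deposited totals of 8809179 to 11231330 counts in JVM2 against 31762649 to 37744991 in MEC1 make JVM2 values of scarce genes the less precise. Scripts were tested on simulated data first.

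Every member is named or counted, in the order of its role, and other genes are named where they belong to a listed pathway group and were called or carry a value beside a member. The members and lists were chosen with earlier results of these data known. Positions are from GENCODE release 44 (GRCh38), and promoter sequences are from RefSeq (GRCh38.p14), searched over 250 bases. Alternatives were DESeq2 1.42.0, calls by both tools, other scaling, other filters, a replicate block, thinning of MEC1 and leaving out each library. Whether replicate numbers pair the samples was checked by correlating deviations from group means.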

Additional observations from a re-analysis of the deposited data

Results flagged for a closer look

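The effect of 2B17 against CTRL differed between MEC1 and JVM2, by the interaction term of the joint edgeR fit at an adjusted P below 0.05, for 26 members. Values below are the log2 effect in MEC1 minus the log2 effect in JVM2. They overlap in what they show with the comparisons within each line, since both rest on the same libraries.

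Among the class II chains the differences were HLA-DRA (-1.08), HLA-DRB1 (-0.99), HLA-DRB5 (-0.98), HLA-DQA1 (-0.88), HLA-DQB1 (-0.97), HLA-DQA2 (-0.90), HLA-DQB2 (-0.64), HLA-DPA1 (-0.67) and HLA-DPB1 (-0.89). The exchange genes gave HLA-DMA (-0.75), HLA-DMB (-1.82), HLA-DOA (-0.86) and HLA-DOB (-1.26), of which HLA-DMB stood furthest from 0. CD74 (-0.27) and CIITA (-0.43) were the other parts of the class II route that differed.

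In the class I route the differences were HLA-C (0.32), HLA-F (-0.44), PSMB8 (-0.74) and PSMB9 (-0.22). The PSMB9 value was no longer called in 4 of the 12 fits that left out a library, which were those without JVM2-2B17 replicate 1, JVM2-CTRL replicate 3, MEC1-2B17 replicate 2 or MEC1-CTRL replicate 1 (values from -0.21 to -0.18, adjusted P = 0.0548 to 0.0689). The genes that act in the ER differed in the positive direction, with ERAP1 (0.85), ERAP2 (0.51), CALR (0.77), CANX (0.61) and PDIA3 (0.62). Among endosomal proteases, LGMN (1.16) and CTSH (-0.20) differed, with opposite signs. The CTSH call was lost in 7 of the 12 such fits, those without JVM2-2B17 replicate 1, JVM2-CTRL replicate 2 or 3, MEC1-2B17 replicate 2 or 3, or MEC1-CTRL replicate 1 or 3 (adjusted P = 0.0649 to 0.104).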

How the results depend on the processing

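The 134 alternative totals of called genes and members stayed within 1.5 times the reported total, but the 14 members called lower in JVM2 became 9, 9 and 8 without JVM2-CTRL replicate 1, 2 or 3. Leaving out each replicate in turn gave 32 to 34 called members in MEC1, 20 to 30 in JVM2, 23 to 28 for the difference between lines and 38 to 40 between control cells, and 5936 to 6606, 2687 to 4541, 4231 to 5063 and 11216 to 12273 called genes. DESeq2 called 33 members in MEC1 and 23 in JVM2, losing HLA-E, TAP2 and PSMB10, and 4782 genes with a difference between lines, among them RFX5 and not CD74. In JVM2, TAP2 and HLA-E also lost their call without a filter (adjusted P = 0.054 and 0.0519), HLA-E with RLE scaling (0.051) and TAP2 with 10 counts required in every library (0.0518). CD74 was called in MEC1 with library totals alone (-0.08, adjusted P = 0.0339) and with 10 counts in every library (-0.08, 0.0458).

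Same-numbered samples did not deviate together (r from -0.090 to 0.068 in MEC1 and -0.013 to 0.136 in JVM2), so the numbers were not taken as pairs. A replicate block gave 34 members in MEC1 (adding RFXAP), 29 in JVM2 (adding NLRC5, TAPBP and CD74), 28 between lines and 40 between controls. Among MEC1 and JVM2 values, 4 and 10 single values changed sign under an alternative, none of them a called one except HLA-C in MEC1, which was called in 1 fit.

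Signs changed for values near 0. With MEC1 thinned to the JVM2 depth, PSMB10 was 0.0492 in MEC1, and the differences between lines were -0.0018 for CTSB, -0.0239 for TAP1 and -0.0692 for TAP2. The TAP1 difference was -0.0013 with DESeq2, -0.0009 with RLE scaling, -0.0021 without a filter and -0.0006 with 10 counts in every library, and NFYC in JVM2 was 0.0002 without a filter. Between controls, library totals alone gave RFXANK -0.11, CTSH -0.0645, TAPBPL -0.0401, NLRC5 -0.0529, ERAP1 -0.028 and HLA-F -0.0815, and 10 counts in every library gave RFXANK -0.0168. Leaving out each replicate gave ranges of -0.022 to 0.0595 for CTSH, -0.106 to 0.0528 for NFYA, -0.0556 to 0.0644 for NFYC and -0.14 to 0.21 for RFXAP in JVM2, of -0.0276 to 0.135 for HLA-C and -0.0034 to 0.0443 for TAPBPL in MEC1, of -0.0215 to 0.0719 for CTSB, -0.0149 to 0.0652 for PSME2, -0.0293 to 0.0496 for TAP1 and -0.0581 to 0.0796 for TAP2 between lines, and of -0.0226 to 0.0992 for RFXANK between controls. The cause of these changes was not tested.

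At the depth of JVM2 the arms were not told apart for HLA-DOB (SE 0.17) and IFI30 (SE 0.35). Thinning MEC1 to that depth left 33 members, HLA-DOB among them, but 4680 genes called in place of 6909.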
